A study of Mus musculus with 30 samples.

Results

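The genes described here encode the proteins of the cytosolic ribosome in mHypoA-2/12 cells, an adult mouse hypothalamic line that was made immortal with a temperature-sensitive SV40 large T antigen. They were taken by symbol from the protein-coding genes of the count tables (Rpl or Rps followed by a number, and Rpsa, Rplp0, Rplp1 and Rplp2). Pseudogenes and the Rps6k kinases were left out. The rule gave 83 genes of 56941 rows, 51 of the large subunit and 32 of the small subunit. Of these, 78 had enough reads to enter each test.

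All libraries were 3′ mRNA-Seq libraries, which read the end of each transcript. Cells received vehicle (0.1% DMSO) or cannabidiol (CBD), a non-intoxicating compound of Cannabis, for 6 h or 24 h, at 3 µM or at 1 of 3 lower doses (0.325, 0.75 and 1.5 µM). Each of the 10 groups held 3 libraries, 30 in all, with no labelled batch. The labels do not say whether the 3 libraries of a group came from separate cultures, so p-values measure only the spread between these libraries. The vehicle libraries of one time served as control for all 4 doses of that time, and all cells belong to 1 line. Between 1839620 and 4420680 reads per library fell on genes, and between 17.7% and 22.2% of the reads that could be placed once fell outside genes. Of 9 neuronal markers, Map2, Tubb3, Stmn2 and Nefl had mean levels between 15.4 and 49.3 CPM (read counts scaled to a common library size by TMM), whereas Snap25, Elavl4, Syp and Rbfox3 were below 1 CPM. Of 6 hypothalamic markers, Npy had 1 read over the 30 libraries, Pomc 3, Agrp 15, Lepr 34 and Ghsr 0, while Npy1r had 146 reads, with some in each library (mean 1.71 CPM). Among the glial markers Aqp4, Olig1, Olig2 and Sox10 had no read, while the mesenchymal genes Col1a1 and Vim were at 2063 and 2209 CPM.

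A ribosome consists of a small subunit, which reads the mRNA, and a large subunit, which joins the amino acids. Most of its proteins are needed in about equal amounts, and cells adjust the synthesis of the whole set together. Most mRNAs of the set begin with a cytosine followed by a run of pyrimidines at the 5′ end (the TOP motif), through which mTOR and Larp1 control their translation. That control acts on translation, so it need not be visible in the mRNA counts given here.

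To show this start, the 30 bases around the annotated start of 8 genes with large or called changes below are printed 5′ to 3′, with 15 bases before the start and 15 from it on. Capitals mark the longest unbroken run of C or T within 10 bases on either side of the start, on the strand of the gene. Sequences and positions are RefSeq's for GRCm38.p6.
Rpl28 (chr7:4792950-4792979, + strand): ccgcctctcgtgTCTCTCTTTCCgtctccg
Rpl35 (chr2:39005117-39005146, - strand): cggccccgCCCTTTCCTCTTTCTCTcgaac
Rpl7a (chr2:26910792-26910821, + strand): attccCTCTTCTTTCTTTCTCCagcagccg
Rps18 (chr17:33955651-33955680, - strand): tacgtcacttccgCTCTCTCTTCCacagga
Rpl34 (chr3:130730323-130730352, - strand): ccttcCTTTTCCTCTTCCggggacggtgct
Rpl39l (chr16:10170213-10170242, + strand): ctcccaggCCTTTCCggatttccggtggtc
Rpl26 (chr11:68901551-68901580, + strand): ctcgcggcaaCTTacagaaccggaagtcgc
Rps3 (chr7:99483695-99483724, - strand): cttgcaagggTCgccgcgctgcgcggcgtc
The run was 17 bases long in Rpl35 and Rpl7a, 13 in Rpl34, 11 in Rpl28 and Rps18 and 7 in Rpl39l, but 3 in Rpl26 and 2 in Rps3 at the starts annotated for them. In Rpl35, Rpl7a and Rpl34 the run reached the edge of the searched window and goes on in the printed letters beyond it, so these lengths are lower limits. A second start annotated for Rpl34 had a run of 6. A run of 7 or more pyrimidines stood in 28 of 75 promoters of 63 members (37.3%) and in 12.2% of all 32851 promoters of the table, and 20 members had no entry. The letters CCGGAAG, searched on both strands of the 300 bases from 250 before the start, were found in 36% of the members' promoters and in 8.86% of all promoters. This search and the search for runs were separate, and a match is only a description of the letters.

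The 83 genes, which include 6 paralogs of common forms, covered a wide range of levels. Rps14, a small-subunit protein of the decoding platform, was highest at 6616 ± 670 CPM (SD, n = 30). Rpl37, Rps12, Rps26 and Rplp1, the last a protein of the acidic stalk, followed at 3883 ± 376, 3311 ± 383, 3265 ± 526 and 2923 ± 504 CPM. Rpl28, a large-subunit protein, ranked at place 44 with 489.7 ± 116 CPM. At the other end stood Rpl22l1 (1.62 CPM), Rpl29 (1.36 CPM), Rpl10l (1.04 CPM), Rpl24 (0.506 CPM) and Rpl3l (0.0894 CPM), which were the 5 genes with too few reads to be tested. In 3′ libraries a transcript gives about the same number of reads whatever its length, so these levels were not divided by length.

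**Figure D1:**
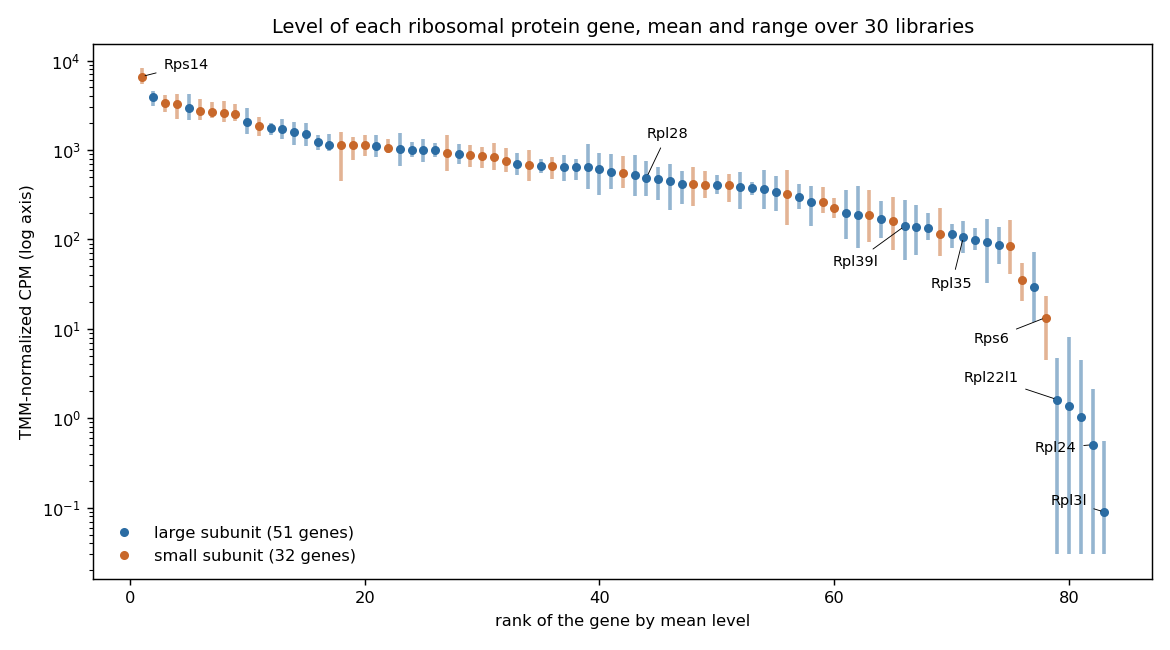
Each point is the mean TMM-normalized CPM (log axis) of 1 of the 83 ribosomal protein genes over 30 libraries, ordered by rank, and the bar runs from its lowest to its highest library; bars of genes with a library at 0 are drawn down to a common floor. Levels fall slowly from Rps14 at 6616 CPM to Rps6 at 13.4 CPM, and the 5 genes after it lie below 2 CPM.

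The paralogs named with an l suffix are expressed in some tissues in place of, or beside, the common form. Rps27l, a p53 target in many cells, was at 260.5 CPM, Rpl39l, known from testis, at 141 CPM and Rpl7l1 at 99.2 CPM, and these 3 were tested. Rpl22l1, Rpl10l and Rpl3l, the last a heart and skeletal muscle form, were not. Of the ribosomal proteins that the symbol rule does not reach, Rack1, a scaffold of the small subunit, was at 1433 CPM, Fau at 569.6 CPM and Rpl36al at 26.9 CPM.

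Low counts of universally used proteins such as Rpl24, Rpl29 and Rps6 have to be read beside the pseudogene rows of the same tables. Ribosomal protein mRNAs have many processed copies in the mouse genome, and a read that fits 2 places was not counted for either. The last 300 bases of the members' coding transcripts were therefore compared with all annotated transcripts. At least 95% identity over 150 or more bases was found with at least 1 other row for 57 members, and 26 members had no such copy. Copies outside the set held 1211780 reads against 6174915 on the members, which is 19.6% as many. For 13 members the copies held at least as many reads as the gene itself. Rpl24 had 42 reads and its 5 copies 8626, of which Gm9385 held 8364. Rps10 had 2872 reads and its copies 43950, Rpl15 had 2567 and its copies 34652, and Rpl35 had 8833 and its copies 33478. The most-read copy of Rpl35, Gm2000, is 99.7% identical over 299 bases and is itself annotated as protein-coding. Whether reads on a copy came from it or from the parent gene cannot be told apart with these counts, so the levels of these genes are uncertain.

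Rpl28 (ENSMUSG00000030432, chromosome 7, 4792874 to 4795066 on the + strand of GRCm38) belongs to the genes with copies. It had 42038 reads, and 4 processed pseudogenes had 16269 together, of which Rpl28-ps1 (100% identical over 281 bases) held 10629 and Gm10051 held 5425. Results for Rpl28 are therefore given for its own row and then with the copies added, an alternative chosen after seeing the data.

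The members together took 6.46% to 7.99% of all reads on genes (median 7.29%). At 6 h the share was 7.11% ± 0.295 (SD, n = 3) in vehicle and 7.55% ± 0.482, 7.07% ± 0.446, 7.25% ± 0.693 and 7.18% ± 0.0913 from the lowest to the highest CBD dose. At 24 h it was 7.05% ± 0.180 in vehicle and 7.50% ± 0.258, 7.46% ± 0.214, 7.63% ± 0.121 and 7.28% ± 0.642 at the same doses. The 3 lower doses of 24 h lay above vehicle in every library, and the groups of 6 h overlapped. With mitochondrially encoded genes left out of the total, 0.325 µM of 24 h overlapped vehicle too. Its lowest library was at 7.82% and the highest of vehicle at 7.88%. The lowest libraries at 0.75 and 1.5 µM, at 7.90% and 8.12%, stayed above vehicle. These shares are a description without a test, and in bulk RNA fewer cells of a kind and less RNA per cell cannot be told apart. The copies took 1.55% to 1.64% of reads in the group means of 6 h, 1.34% in vehicle of 24 h, 1.15% to 1.30% at the 3 lower doses of 24 h, and 1.55% at 3 µM.

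The first comparison asked which ribosomal protein genes responded to CBD at 6 h. One did at the lowest dose. Rpl28 read 304, 315 and 310 CPM in the 3 vehicle libraries and 509.8, 487 and 534 CPM at 0.325 µM. All treated libraries were above all vehicle libraries, as for 5.75% of all genes, and the change was 0.71 on the log2 scale (SE 0.139, FDR 0.0333 in edgeR's quasi-likelihood test). It was the only member called of 78, against 0.2% of all 12012 genes. At an unadjusted p below 0.05 there were 9 members (11.5%, against 8.8% of all genes). Rpsa, the laminin receptor protein of the small subunit, and Rpl36 came next with 0.49 (FDR 0.122) and 0.54 (FDR 0.143), which did not pass. The median change of the 78 genes was 0.07, against -0.02 over all genes, and 47 of the 78 were above 0 (60.3%, against 47.6% of all genes).

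At 0.75, 1.5 and 3 µM no member was called at 6 h, where 0.0749%, 0.0999% and 0.05% of all genes were. At an unadjusted p below 0.05 there were 6, 9 and 3 members, or 7.69%, 11.5% and 3.85% of the 78, against 7.79%, 7.91% and 7.26% of all genes, and DESeq2 called 0, 1 and 1. The DESeq2 call at 1.5 µM was Rpl28. Over 24 alternatives (other settings or 1 library left out) Rpl28 passed in 1, 3 and 0 at these doses. Rpl28 and Rpl35 were the members with the smallest or next smallest p at each of these doses. Rpl28 read 447, 358 and 487 CPM at 0.75 µM, 535, 397 and 407 CPM at 1.5 µM and 422, 375 and 423 CPM at 3 µM. Each of these libraries was above the highest vehicle library, with log2 changes of 0.48 (FDR 0.298), 0.52 (FDR 0.200) and 0.39 (FDR 0.485). Thus Rpl28 was not ordered by dose. A test for any difference among the 4 doses of 6 h called no member and 0% of all genes, by edgeR and by DESeq2 alike (Rpl28 FDR 1.0). In edgeR 4 members (5.13%) were there at an unadjusted p below 0.05, against 3.76% of all genes, and Rpl36, Rpl26 and Rpl41 had the smallest p (FDR 1.0 each).

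Rpl35, a large-subunit protein near the exit of the nascent chain, moved the other way. It read 142, 152 and 160 CPM in vehicle and between 90.6 and 124 CPM in the 12 CBD libraries of 6 h. No CBD library reached the lowest vehicle library. The changes were -0.49 (FDR 0.206), -0.51 (FDR 0.257), -0.45 (FDR 0.350) and -0.63 (FDR 0.104) from the lowest to the highest dose, so none passed by itself. Rps20, Rpsa and Rpl7l1 completed the 3 members with the smallest p at 0.75, 1.5 and 3 µM, with -0.33 (FDR 0.522), 0.34 (FDR 0.442) and -0.38 (FDR 0.604).

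When the 4 doses were averaged, 2 of 78 members passed (2.56%, against 0.749% of all genes). Rpl35 fell by 0.52 on the log2 scale (SE 0.11, FDR 0.0294), from 151 to 106 CPM. Rpl28 rose by 0.53 (SE 0.113, FDR 0.0313), from 309.6 to 448 CPM. Both were free of overlap, which held for 0.733% of all genes in the higher and 0.724% in the lower direction. At an unadjusted p below 0.05 there were 7 members (8.97%, against 10.3% of all genes). Rpsa was next with 0.30 (FDR 0.242). The median of the 78 genes was 0.02, and 42 were above 0 (53.8%, against 46.5% of all genes).

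Counting the copies gave other values. In vehicle of 6 h they set the third library (A3) apart from the first and second. Those of Rpl28 read 361, 315 and 155 CPM in vehicle and between 173 and 267 CPM in the CBD libraries of 6 h. Rpl28-ps1 and Gm10051 had changes of -0.33 (FDR 0.532) and -0.29 (FDR 0.625) for the mean of 4 doses, opposite in sign to Rpl28 itself. Added to Rpl28, they left changes of 0.33 (SE 0.129, FDR 0.424) at 0.325 µM and 0.19 (SE 0.103, FDR 0.559) for the mean of 4 doses, and no member was called in either comparison. Those of Rpl35 read 766, 678 and 363 CPM in vehicle. The copy Gm2000 changed by -0.53 (FDR 0.232), and Rpl35 and its copies together by -0.42 (SE 0.123, FDR 0.161). The direction of both genes was kept, but neither call was. The calls also rested on few libraries: without the second vehicle library (A2) 0 members were called for the mean of 4 doses, and without the third (A3) 12 were. Without the first (A1) 1 was called. At 0.325 µM 0 were called without A2 or without either the second or the third treated library, 2 without A1, 3 without the first treated library and 8 without A3. The share of all genes called in these refits, or with copies added, is not given here. The shifts therefore cannot be called particular to the members.

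**Figure D2:**
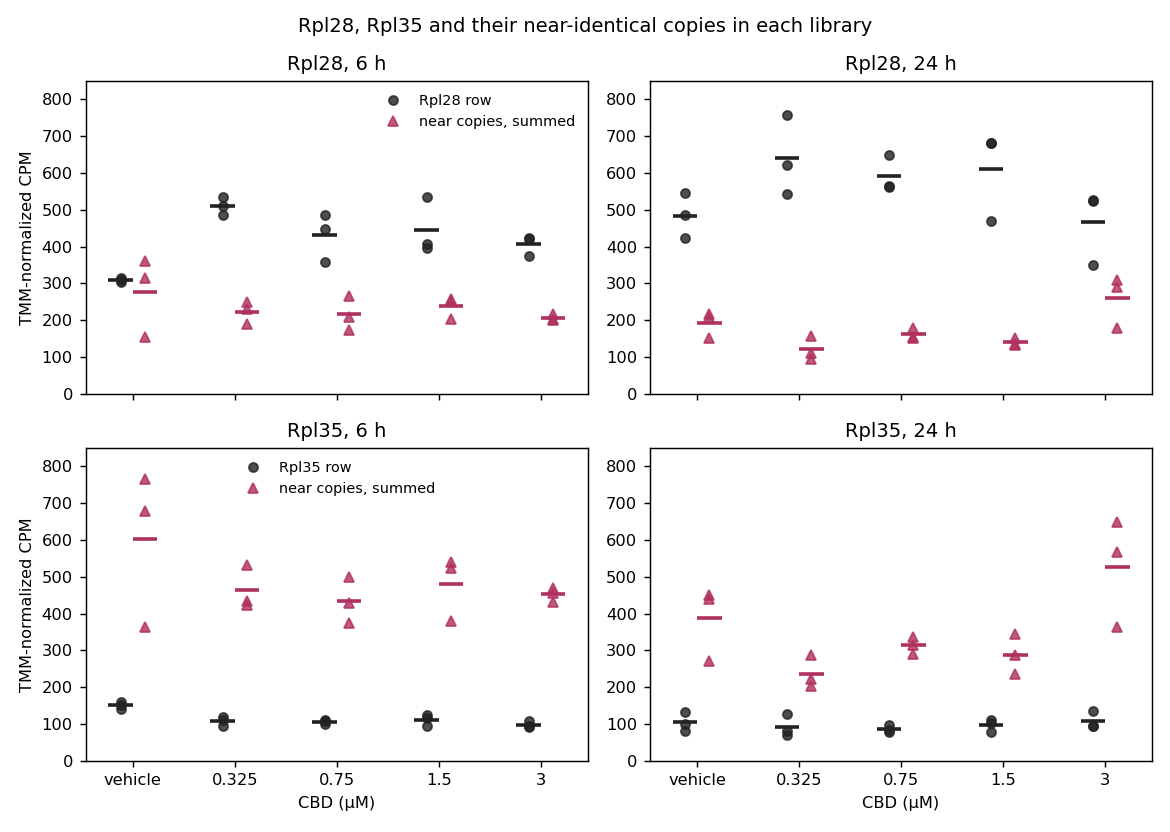
TMM-normalized CPM of Rpl28 and Rpl35 (circles) and of their near-identical copies summed (triangles) in each library at vehicle and 4 CBD doses, at 6 h and 24 h; short lines are group means, n = 3. At 6 h Rpl28 sits above its 3 vehicle libraries at every dose while the mean of its copies is higher in vehicle than at any dose, and the copies of Rpl35 outweigh the gene in every library.

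At 24 h none of the 78 members was called at any dose against vehicle, nor for the mean of 4 doses. The shares of all genes called there were 0.066%, 0.0825%, 0.0413% and 0.00825% from the lowest to the highest dose, and 0.107% for the mean. DESeq2 called 1 member at 0.75 µM and none at the other doses or for the mean. At an unadjusted p below 0.05 there were 14, 9, 15 and 10 members by dose and 8 for the mean (17.9%, 11.5%, 19.2%, 12.8% and 10.3%, against 8.33%, 7.63%, 7.34%, 9.16% and 6.73% of all genes). More members lay above 0 than below, without single calls: 54, 48, 62 and 47 of 78 were above 0 (69.2%, 61.5%, 79.5% and 60.3%), against 48.9%, 48.8%, 49.8% and 51% of all genes. For the mean of 4 doses 61 were above 0 (78.2%, against 48.6% of all genes). Reads outside genes were 21.4% in vehicle and at 3 µM and 19.4% to 19.7% at the lower doses, and mitochondrially encoded genes took 8.92% of gene reads in vehicle and 7.33% to 7.83% in the CBD groups. Their part in these counts was not tested. Their median changes by dose were 0.10, 0.06, 0.14 and 0.05 on the log2 scale, and the standard error of a single member was 0.13 at the median for each dose.

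Rpl28 read 545, 422 and 485 CPM in vehicle at 24 h, and 757, 621 and 543 CPM at 0.325 µM. It read 562, 564 and 649 CPM at 0.75 µM, 682, 680 and 470.1 CPM at 1.5 µM, and 524, 526 and 351 CPM at 3 µM. Only the 0.75 µM libraries were all above vehicle. The changes were 0.39 (FDR 0.50), 0.27 (FDR 0.726), 0.33 (FDR 0.668) and -0.04 (FDR 0.948), none of which passed. With the copies added they were 0.16, 0.14, 0.14 and 0.12.

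The members with the smallest p at 24 h were Rpl23, Rpl37a and Rps10 at 0.325 µM with 0.43, 0.34 and -0.56 (FDR 0.448, 0.465 and 0.466). They were Rps6, Rps26 and Rpl23 at 0.75 µM with -1.38, 0.32 and 0.47 (FDR 0.317, 0.340 and 0.371). Rps6, the small-subunit protein that S6 kinase phosphorylates, had only 1129 reads in all libraries. Rpl23, Rpl5 and Rps7 led at 1.5 µM with 0.50, 0.57 and 0.30 (FDR 0.474, 0.511 and 0.562), and Rpl7a and Rpl8 at 3 µM with -0.57 and 0.36 (FDR 0.507 each). For the mean of 4 doses Rpl23, Rpl37 and Rps6 led with 0.35, 0.21 and -0.70 (FDR 0.565, 0.667 and 0.667). Rpl23 and Rpl5, large-subunit proteins that can bind Mdm2, thus stood among the first but did not pass.

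**Figure D3:**
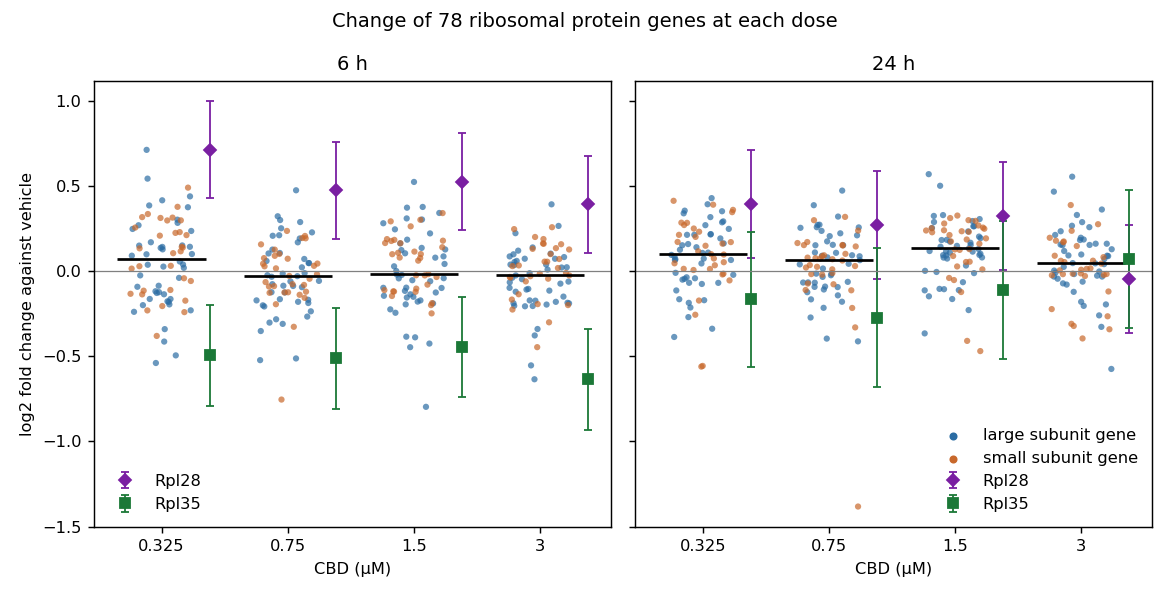
Log2 fold change against vehicle of 78 ribosomal protein genes (points, coloured by subunit; black line, median) at each CBD dose, at 6 h and 24 h, with Rpl28 and Rpl35 marked beside them with 95% confidence intervals. Rpl28 has the highest value of all members at each dose of 6 h, from 0.39 to 0.71, and at 24 h it is within the cloud.

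Among the doses themselves the members differed at 24 h. A test for any difference among the 4 doses called 4 members, Rpl8 (FDR 0.0541), Rpl23a (FDR 0.0755), Rps2 (FDR 0.0776) and Rpl7a (FDR 0.0837), which is 5.13% of 78, against 1.93% of all genes. The calls rested on single libraries: this test called 0 members without A18 (3 µM), A19 (1.5 µM), A22 or A23 (0.75 µM), or A25 or A26 (0.325 µM), 1 without A24 (0.75 µM), 2 without A16 (3 µM), 11 without A27 (0.325 µM) and 20 without A17 (3 µM). The share of all genes called without each library is not given here, so these shifts cannot be called particular to the members. Rpl28 was not among the 4 (FDR 0.338). The contrast of 3 µM with the mean of the 3 lower doses called 17 members (21.8%, against 10.5% of all 12118 genes), 8 higher (6.36% of all genes) and 9 lower (4.16% of all genes). At 6 h the same contrast called 0 members and 0% of genes in edgeR, and 0 members in DESeq2. There 4 members (5.13%, against 5.19% of all genes) were at an unadjusted p below 0.05, and Rpl26, Rpl36, Rpl21 and Rpl28 had -0.48, -0.32, -0.31 and -0.18 (FDR 0.905 each).

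Rpl8, a core protein of the large subunit, was the first of those 17. It read 2944, 1892 and 2422 CPM at 3 µM and between 1523 and 1839 CPM in the 9 libraries of the lower doses, and 1616, 2087 and 1980 CPM in vehicle of 24 h. Vehicle overlapped both, but all 3 µM libraries were above all lower-dose libraries, with a change of 0.52 (SE 0.104, FDR 0.00633). Rpl23a, which binds the signal recognition particle, was 0.77 higher (FDR 0.0105), but its 3 µM libraries spread from 333 to 700.2 CPM and overlapped the others. Rps20, Rpl7, Rpl27a and Rpl39l were higher by 0.34, 0.36, 0.43 and 0.67 (FDR 0.0271, 0.0290, 0.0294 and 0.0406). Of the lower ones, Rps29 read 1581, 1755 and 1458 CPM, all below the lower doses, at 1856 to 2174 CPM (change -0.34, FDR 0.0297). Members free of overlap numbered 1 in the higher direction (Rpl8; 1.86% of all genes) and 3 in the lower (Rps29, Rps26 and Rpl11; 2.74% of all genes), of which Rpl11 was not called. Rpl7a, Rps18 and Rpl23 changed by -0.67, -0.43 and -0.46 (FDR 0.0195, 0.0244 and 0.0301). Rpl28 was the last of the 17 at -0.37 (FDR 0.0808).

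Several measures moved with this contrast, and their part in it was not tested. Reads outside genes were 21.4% ± 0.487 at 3 µM and 21.4% ± 0.714 in vehicle of 24 h, and 19.4% to 19.7% in the group means of the lower doses. Multi-mapped alignments were 30.9 per 100 gene reads at 3 µM and 28.5 to 29.5 at the lower doses. With either of these as a covariate 0 members were called, and the share of all genes called there is not given here. Of 6 mesenchymal markers tested, 2 were lower at 3 µM, where 4.16% of all genes were. Of 4 neuronal markers tested, 0 were called, where 10.5% of all genes were. Single libraries weighed heavily: without the first 3 µM library (A16) 4 members were called, without the third (A18) 5, without the second (A17) 27, and without the third library of 0.325 µM (A27) 26. For these refits too the share of all genes called is not given here.

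The near-identical copies moved far more than the members here. Of 163 copies with enough reads, 153 were above 0 and 56 were called higher and 2 lower (35.6%, against 10.5% of all genes), with a median change of 0.57, while the median of the members was -0.07. Rpl28-ps1 was higher by 0.93 (FDR 0.00118) and Gm10051 by 0.91 (FDR 0.00157), and the copies of Rpl35, Gm2000 and Gm10269, by 0.91 (FDR 0.00138) and 1.02 (FDR 0.00441). With copies added, 18 members were called, 13 higher and 5 lower, in place of 8 and 9, and the share of all genes called there is not given here. Rpl28 then changed by -0.03 (FDR 0.894) and Rpl7a by 0.23 (FDR 0.300), whereas Rpl35 passed with 0.80 (FDR 0.00123). Rpl8, Rps20, Rpl27a, Rpl23, Rpl39l and Rps16 have no copy by this measure, and each was still called. Their own counts are the same in this setting, so it is no test of their calls.

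More genes were called between the times than between doses. In vehicle, 24 h against 6 h, 20 of 78 members were called (25.6%, against 26.7% of all 12790 genes), 6 higher (12.5% of all genes) and 14 lower (14.2% of all genes). So the members were called about as often as other genes. More of their calls were lower than higher, as over all genes (1811 lower and 1600 higher), and the difference in direction was not tested. The median change was -0.11, and -0.03 over all genes.

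Rpl34 and Rpl39l fell most in vehicle. Rpl34, a large-subunit protein, read 866, 1020 and 1013 CPM at 6 h and 386, 439 and 398 CPM at 24 h, a change of -1.25 (SE 0.178, FDR 6.33e-06). Rpl39l read 205, 216 and 241 CPM at 6 h and 69.2, 96.8 and 69.0 CPM at 24 h, a change of -1.50 (SE 0.230, FDR 1.88e-05). Neither gene overlapped between the times. Rpl39, the common form of Rpl39l, was not called (-0.03, FDR 0.944). Rps3, Rps13, Rps15a and Rps27l of the small subunit were lower, with changes of -0.59, -0.76, -0.65 and -0.50 (FDR 0.00115, 0.00131, 0.00428 and 0.00502).

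Rpl26, Rpl36, Rpl28 and Rpl3 were the members that rose with the smallest p. Rpl26, which binds p53 mRNA in stressed cells, read 472, 356 and 387 CPM at 6 h and 614, 651 and 826 CPM at 24 h, a change of 0.78 (SE 0.171, FDR 0.00114). Rpl36 rose by 0.60 (FDR 0.00184), and Rpl3, which lies at the peptidyl transferase centre, by 0.58 (FDR 0.00463). For Rpl28 the change was 0.65 (SE 0.155, FDR 0.00293), from 309.6 to 484 CPM without overlap. The remaining calls were Rpl21 and Rpsa, higher, and Rpl7l1, Rpl13a, Rpl27a, Rpl35, Rpl23a, Rps3a1, Rpl27 and Rpl9, lower.

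The CBD libraries gave the same comparison in other samples. The mean of 4 doses, 24 h against 6 h, called 49 of 78 members (62.8%, against 53.6% of all genes), 20 higher (26% of all genes) and 29 lower (27.6% of all genes). With 12 libraries on each side it could call smaller changes than the vehicle comparison with 3. Rpl39l, Rpl34, Rps13, Rps3, Rpl23a and Rps15a fell by 1.26, 0.96, 0.66, 0.40, 0.61 and 0.46 on the log2 scale. Rpl26, Rpl21, Rpl3 and Rpl36 rose by 0.79, 0.70, 0.56 and 0.40, and Rpl28 by 0.36 (FDR 0.000210). Of the 20 members called in vehicle 19 were called in the same direction with CBD (95%, against 86.2% of the calls over all genes), which is 38.8% of the 49 (42.9% over all genes). The sign was the same for 67 of 78 members (85.9%, against 79.3% of all genes).

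**Figure D4:**
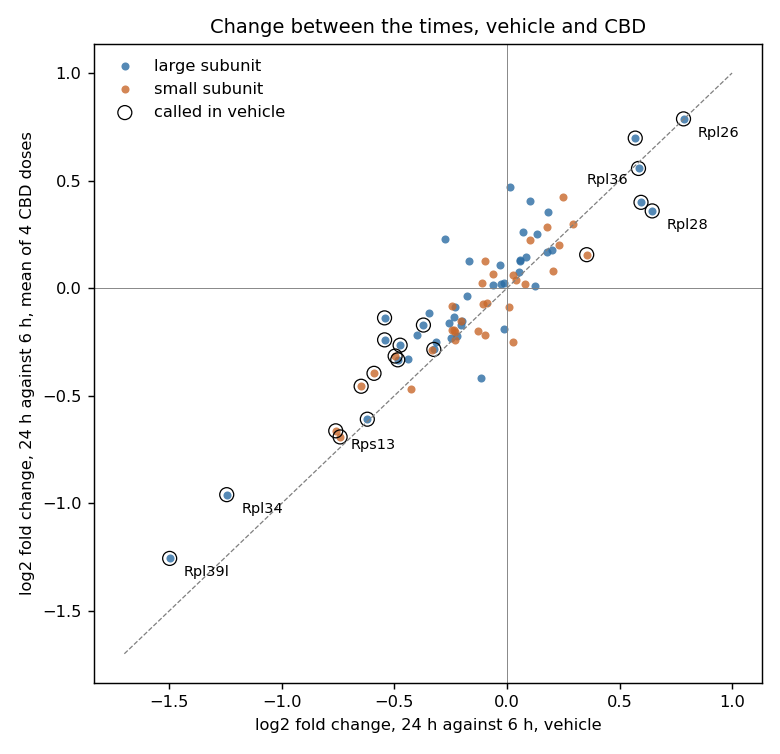
Log2 fold change from 6 h to 24 h of 78 ribosomal protein genes in vehicle (horizontal) and in the mean of 4 CBD doses (vertical); circles mark the 20 genes called in vehicle and the dashed line is equality. Rpl39l and Rpl34 lie at the lower left and Rpl26 at the upper right, near the line.

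Whether the change between the times differed between CBD and vehicle was tested directly. Of 78 members 0 were called by edgeR and 0 by DESeq2, against 0.235% of all genes in edgeR, and 0 had an unadjusted p below 0.05, against 6.52% of all genes. Rpl35, Rpl7l1 and Rpl28 had the smallest p, with differences of 0.41 (95% interval -0.0031 to 0.81, FDR 0.761), 0.30 (FDR 0.797) and -0.29 (95% interval -0.64 to 0.06, FDR 0.816). The intervals leave room for differences of that size.

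The copies and the multi-mapped reads also differed between the times. In vehicle 1 of 5 neuronal markers tested was higher and 1 lower at 24 h, and 2 of 6 mesenchymal markers were higher and 1 lower. Of all genes 12.5% were higher and 14.2% lower there. Multi-mapped alignments were 32.6 to 34.2 per 100 gene reads in the group means of 6 h and 28.5 to 30.9 at 24 h. Of 193 copies 111 were lower and 2 higher in vehicle at 24 h (58.5% called, against 26.7% of all genes), with a median change of -0.84, and with CBD 145 were lower and 4 higher (median -0.80). With copies added to the members, 32 were called in vehicle, 4 higher and 28 lower. The share of all genes called in that setting is not given here, so the shift cannot be called particular to the members. Rpl26, Rpl3, Rpl36 and Rpsa stayed higher with 0.34, 0.43, 0.33 and 0.33. Rpl28 then changed by 0.21 (FDR 0.239) and Rpl21 by 0.22 (FDR 0.268). Rps3, Rpl39l, Rps27l, Rpl13a, Rpl27a and Rpl7l1 have no copy by this measure, so their own counts are the same in this setting. It is no test of their changes, for example -1.50 for Rpl39l and -0.59 for Rps3. Rpl34 stayed at -1.15 (FDR 6.24e-06) and Rps13 at -0.41 (FDR 0.0134). With multi-mapped alignments as a covariate 6 members were called in vehicle and 17 with CBD, without the share of all genes beside them. That covariate differs between the times, so its part and that of time cannot be told apart.

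**Figure D5:**
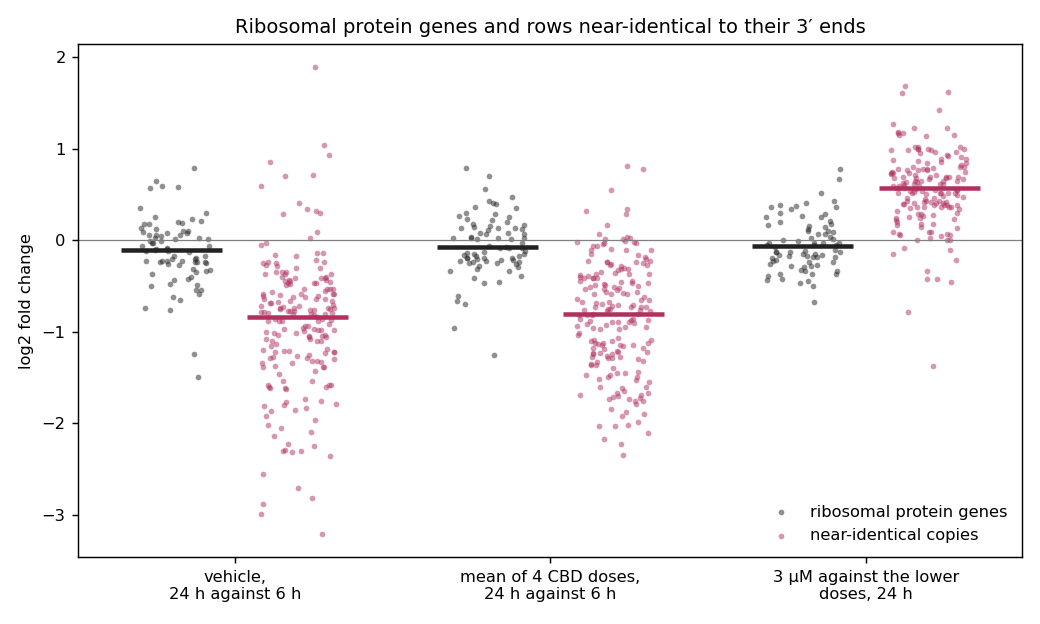
Log2 fold changes of the 78 ribosomal protein genes (dark) and of the annotated rows near-identical to their 3′ ends (red) in 3 comparisons; each point is a row and lines are medians. The copies have medians of -0.84, -0.80 and 0.57, while the medians of the members are -0.11, -0.08 and -0.07.

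Over the 30 libraries the members most like Rpl28, by Pearson's correlation of log2 CPM, were Rpl3 (0.86), Rpsa (0.85) and Rpl23 (0.83), and the least like was Rpl23a (-0.73). Of 77 other members, 20 had a correlation above 0.5 and 11 below -0.5, with a median of 0.19. All libraries share the 2 times and their scaling, so this is only a measure of likeness.

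Ribosome biogenesis factors, which process ribosomal RNA and assemble the subunits in the nucleolus, were lower at 24 h. In vehicle 16 of 22 were lower than at 6 h, where 14.2% of all genes were, and none was higher, with a median of -0.59. They included Ncl (-0.64, FDR 0.000339), Fbl (-0.86, FDR 0.0112), Nop2 (-0.81, FDR 0.000605), Rrp9 (-0.94, FDR 0.00107) and Rrs1 (-1.03, FDR 0.000447), with Nop58, Dkc1, Pes1, Wdr12, Nolc1, Tcof1, Ddx21, Nip7, Gnl3, Polr1a and Polr1b between -0.52 and -0.92. With CBD 18 were lower (27.6% of all genes) and 2, Polr1c and Rrn3, higher (26% of all genes), the last an initiation factor of RNA polymerase I. At 3 µM against the lower doses of 24 h, 6 of 22 were higher (6.36% of all genes), namely Dkc1 (0.66, FDR 0.00315), Nop56, Wdr12, Nolc1, Rrp12 and Ddx21. At 6 h 1 was called against vehicle, Bop1 at 0.325 µM (0.83, FDR 0.0672), where 0.2% of all genes were called.

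Translation factors and other mRNAs of the TOP class gave mixed directions. In vehicle 5 of 18 were lower at 24 h (14.2% of all genes), namely Eef1a1, Eef1b2, Pabpc1, Npm1 and Nap1l1, and 1 was higher, Eif4b (0.34, FDR 0.0795), as were 12.5% of all genes. Pabpc1, the poly(A)-binding protein, had the smallest FDR at -0.92 (FDR 1.22e-06). With CBD 6 were lower, those 5 and Eef1g, and Eef2, Eif3h and Eif4b were higher. These 9 of 18 are near the 53.6% of all genes called there. At 3 µM against the lower doses of 24 h Eef1a1 (0.83, FDR 0.00315), Pabpc1 (0.43, FDR 0.0113) and Nap1l1 (0.28, FDR 0.0838) were higher and Tpt1 was lower (-0.50, FDR 0.0445). Of all genes 6.36% were higher and 4.16% lower in that contrast. Dkc1, Eef1a1 and Pabpc1 were also called in the test for any difference among doses of 24 h. The search for near-identical copies covered the members only. The part of such copies in the levels and changes of these translation factors and TOP mRNAs was therefore not tested. The same holds for the biogenesis factors above and for the other gene lists below.

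Genes that control ribosome synthesis were tested for the same comparisons. Myc and Mycn, transcription factors that drive ribosomal genes, were lower at 24 h in vehicle, with changes of -1.89 (FDR 0.0423) and -2.52 (FDR 0.000668), at mean levels of 2.28 and 4.98 CPM. Eif4ebp1, a translation repressor under mTOR, was lower at -0.87 (FDR 0.000203), as were Larp4 at -0.48 (FDR 0.0192) and Mdm2 at -0.49 (FDR 0.0309), and Tsc2 was higher at 0.63 (FDR 0.0483). These were 6 of 15, against 26.7% of all genes. With CBD 10 of 15 were called between the times, against 53.6% of all genes: Myc, Mycn, Larp1, Larp4, Eif4ebp1 and Trp53 lower, and Rps6kb2, Tsc1, Tsc2 and Mdm2 higher. Mdm2, the ligase of p53 that several ribosomal proteins bind, was lower with CBD at 6 h for the mean of 4 doses (-0.57, FDR 0.0387). Eif4ebp2 was lower at 3 µM than at the lower doses of 24 h (-0.33, FDR 0.0965), the 1 call of 13, where 10.5% of all genes were called.

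Of the ribosomal proteins outside the symbol rule, Rack1 was lower at 24 h in vehicle at -0.44 (FDR 0.0145) and Rpl36al at -0.95 (FDR 0.00287). With CBD both were lower, at -0.39 and -0.64, and Fau was higher at 0.19 (FDR 0.0316). Of the 3 Rps6ka kinases, Rps6ka3 was lower with CBD between the times (-0.71, FDR 0.000330). None of the 6 of these genes that were tested was called against vehicle at either time.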

How the data were processed

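Gene counts of 30 libraries were used as deposited. Per the labels and the study's methods, the authors trimmed the reads, checked them with FastQC (0.11.9), aligned them to GRCm39 with STAR (2.7.5c) and counted them per gene with HTSeq (1.99.2), which leaves out reads that fit several places. The deposited values are whole-number read counts per Ensembl gene, not normalized. Rows that name no gene were kept out of totals and tests. Gene names, types and places were read from GENCODE M21 (build GRCm38, older than that of the counts), which matched 52000 of 56941 rows.

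Genes with low counts were removed with filterByExpr, libraries were scaled by TMM, and the quasi-likelihood test of edgeR (4.0.16, R 4.3.3) was fitted over all genes of 15 libraries of one time, or of 30 libraries for comparisons between times. P-values were adjusted over all genes tested by Benjamini-Hochberg, giving the FDR, and called below 0.1. Levels are TMM-normalized CPM. The procedure was tested on simulated data: for the mean of 4 doses at 6 h (11747 genes) 33.3% of 99 genes changed 1.5-fold and 76.8% of 95 changed 2-fold were recovered, and 8.62% of calls were false. For 0.325 µM at 6 h (11767 genes) these shares were 14.3%, 44.9% and 12.1%, for 3 µM against the lower doses of 24 h (11842 genes) 35.7%, 75% and 11.3%, for any difference there (11864 genes) 22.2%, 66.3% and 14.7%, and for vehicle between the times (12408 genes) 21.4%, 49% and 6.76%. Copies were found with blastn (2.17.0+). DESeq2 (1.42.0) was an alternative.

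The members, the other gene lists and the markers were chosen with earlier results of these data known. Named are Rpl28 in each comparison, all called members or the 10 with the smallest p, the 3 with the smallest p where none was called, the 5 highest and 5 lowest by level, the paralogs, the 3 members most like Rpl28, and called genes of the other lists. Some genes that this rule names are not reported here. Copies named beside Rpl28, Rpl35 and Rpl24 were chosen after their values were seen. Alternatives with copies added and with multi-mapped alignments as a covariate were chosen after seeing the data. Depth limits single low genes, and intervals given cover the spread between libraries.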

Additional observations from a re-analysis of the deposited data

Results flagged for a closer look

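Among all genes named, Mdm2, the p53 ligase that free ribosomal proteins such as Rpl5, Rpl11 and Rpl23 can bind, was set apart because its response to CBD differed between 6 h and 24 h. The effect of the mean of 4 doses against vehicle at 24 h, less that at 6 h, was 0.79 on the log2 scale (SE 0.184, FDR 0.0656 in edgeR's quasi-likelihood test over 30 libraries). At 6 h the change was -0.57 (FDR 0.0387). The paper, which tested each dose with DESeq2, reports Mdm2 as higher at 6 h at its lowest and intermediate doses. Between the times Mdm2 was lower in vehicle (-0.49, FDR 0.0309) and higher with CBD (0.30, FDR 0.00289). None of the 78 ribosomal protein genes passed the same test. The alternative settings and the refits without 1 library were examined for the ribosomal protein genes only. How the Mdm2 values depend on them was not tested.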

How the results depend on the processing

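No paired analysis was possible because the groups share no replicate numbers in the labels. RLE scaling, TMM without the members and a stricter filter left each count of members called within 1.5 times of the value reported. Without a filter on low counts the calls at 6 h were 3, 1 and 1 at 0.325, 1.5 and 3 µM, and at 24 h 1, 2, 2 and 3 by dose and 1 for the mean, 20 for any difference among doses and 27 for 3 µM against the lower doses. With reads outside genes as a covariate they were 5, 2, 2 and 1 by dose and 4 for the mean at 6 h, and 0 for both tests among doses of 24 h. DESeq2 called 3, 1 and 1 at 0.325, 1.5 and 3 µM of 6 h, 1 at 0.75 µM of 24 h and 11 for any difference there. With only the 2 groups compared there were 0 at 0.325 µM of 6 h, and 2 and 1 at 0.75 and 1.5 µM of 24 h. With copies added there were 0 at 0.325 µM and 0 for the mean of 6 h, and 32 between the times in vehicle. With multi-mapped alignments as a covariate 0 remained for both tests among doses of 24 h, and 6 and 17 between the times in vehicle and with CBD. The cause of these shifts was not tested. The share of all genes called under each setting is not set beside these counts, so the shifts cannot be called particular to the members.

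Leaving out 1 library gave ranges of 0 to 8 calls at 0.325 µM, 0 to 2 at 0.75 µM, 0 to 1 at 3 µM and 0 to 12 for the mean of 6 h, 0 to 4 at 3 µM of 24 h, 0 to 20 for any difference there, 4 to 27 for 3 µM against the lower doses, 16 to 24 in vehicle and 45 to 52 with CBD between the times, and 0 to 0 elsewhere. The highest values at 6 h came without A3 and those of 24 h without A17. The share of all genes called without each library is not set beside these ranges, so they cannot be called particular to the members. Without mitochondrially encoded genes in the total, the members' share was 7.76% in vehicle and 8.24%, 7.74%, 7.88% and 7.80% from the lowest to the highest dose at 6 h, and 7.74% in vehicle and 8.09%, 8.08%, 8.26% and 7.90% at 24 h.

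These settings gave 1521 values of named members. Of them 1402 kept their side of the threshold, 111 lost the call, 5 gained one and 3 reversed direction. Reversal was counted only where the main result was called and had a direction, so sign changes of uncalled values are not included. Rpl28 at 3 µM against vehicle of 24 h, for example, ran from -0.14 to 0.12 over the settings. With copies added Rpl7a turned to 0.23 (FDR 0.300) at 3 µM against the lower doses. With the multi-mapped covariate Rpl39l turned to -0.15 (FDR 0.841) there and Rps15a to 0.07 (FDR 0.718) between the times with CBD.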
